A study of Mus musculus with 5 samples.

Results

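The 10 genes described here, Ppargc1a, Ppargc1b, Nrf1, Tfam, Esrra, Esrrg, Mfn1, Mfn2, Opa1 and Dnm1l, encode the regulators of mitochondrial biogenesis and the large GTPases that fuse and divide mitochondria. They were taken by name from the deposited RefSeq gene table, whatever their values, and are 10 of its 18307 genes. All 10 passed the filter on low counts, which left 13829 genes for testing. RNA was sequenced from embryonic heart ventricles of CD-1 mice, an outbred stock, at embryonic day (E) 10.5. In the caffeine group (3 libraries) the pregnant dams had been injected with 20 mg/kg caffeine each day between E6.5 and E9.5. In the vehicle group (2 libraries) they had been injected with NaCl solution on the same days. Neither group carried a mutation or a transgene. Each library came from pooled ventricles of embryos that shared dams, so every value is an average over embryos and over the cell types of the ventricle. How many embryos made a pool, and the route of injection, are not stated in the labels.

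Mitochondrial biogenesis is driven from the nucleus. The coactivators PGC-1α (Ppargc1a) and PGC-1β (Ppargc1b) bind the estrogen-related receptors ERRα (Esrra) and ERRγ (Esrrg) and nuclear respiratory factor 1 (Nrf1), which activate genes of respiration and of mitochondrial DNA upkeep, among them Tfam, whose protein packages and transcribes mitochondrial DNA. Mitochondrial shape is set by fusion of the outer membrane by the mitofusins (Mfn1, Mfn2), fusion of the inner membrane by Opa1, and division by the dynamin-related protein Drp1 (Dnm1l). In the mouse heart both programmes are needed as cardiomyocytes mature.

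Library totals in the RefSeq gene table ran from 21713381 to 25048134 estimated counts. The markers of the labelled tissue, heart muscle, were high in all 5 libraries. The 12 cardiomyocyte markers summed to 35905 to 36347 CPM (counts scaled to a common library size) in the caffeine libraries and to 40973 and 44465 CPM in the vehicle libraries, 11 of the 12 with a negative log2 fold change and none past a false discovery rate (FDR) of 0.05. Markers of liver and foregut endoderm summed to between 8.49 and 44.1 CPM in the caffeine libraries, against 10.4 CPM in vehicle library 1 and 136 CPM in vehicle library 2, which stood apart. Embryonic erythroid markers overlapped between the groups, with 7758 to 12218 CPM in the caffeine libraries and 7236 and 12586 CPM in the vehicle libraries. The part that these differences had in the results below was not tested.

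None of the 10 genes passed FDR 0.05 between caffeine and vehicle ventricles in edgeR's quasi-likelihood test, adjusted over all 13829 genes. In that comparison 0.00723% of all genes passed, which is 1 gene, and DESeq2 and limma-voom called none of the 10 either. At an unadjusted p below 0.05 there was 1 of the 10, Esrra, against 5.2% of all genes. The caffeine and vehicle libraries did not overlap in CPM for 1 of the 10, again Esrra, against 20.4% of all genes. Of the 10 log2 fold changes (caffeine minus vehicle, throughout) 5 were positive and 5 negative, with a median of -0.0020, beside 0.01 for all genes tested. The median size of the change, regardless of sign, was 0.08 among the 10 and 0.13 among all genes tested, on the log2 scale.

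**Figure D1:**
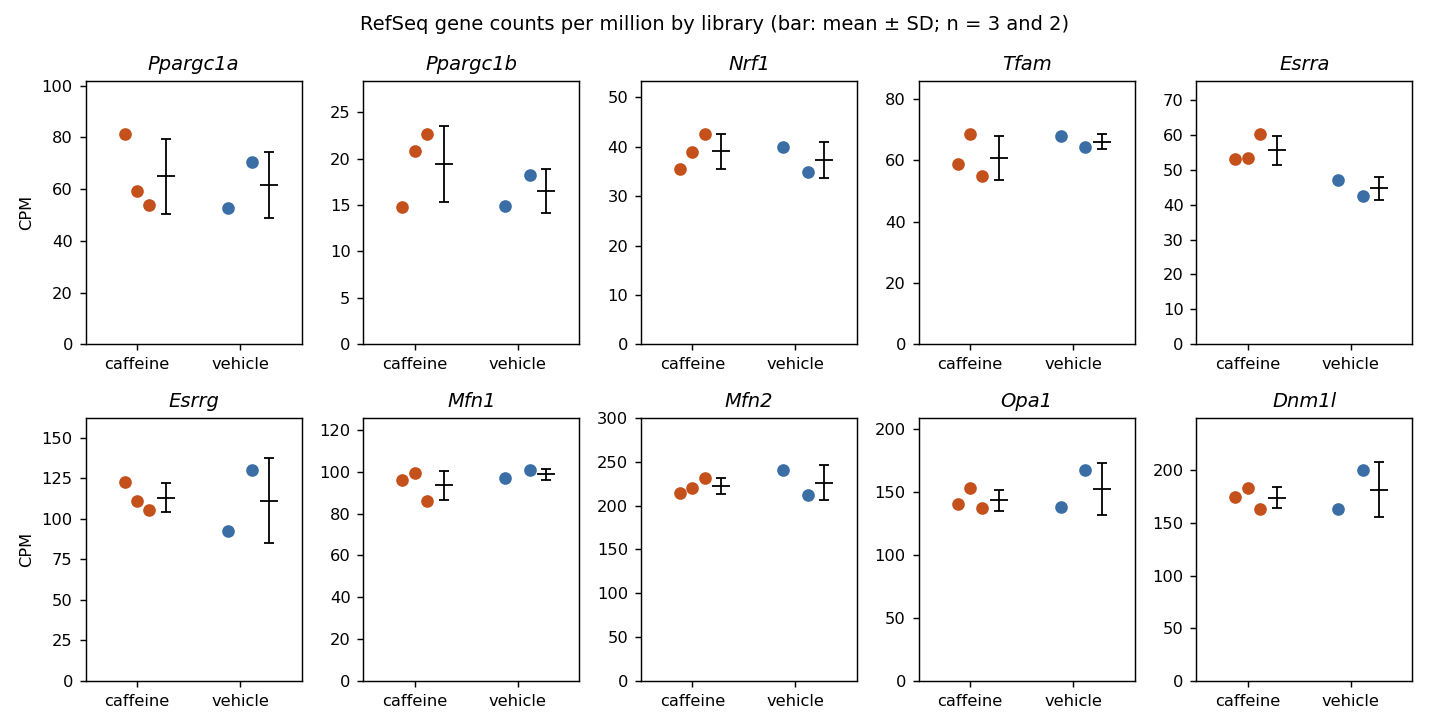
CPM of each of the 10 genes (vertical axis, from 0) in the 3 caffeine libraries (orange) and the 2 vehicle libraries (blue), with the mean and SD beside each group. Esrra is the gene whose caffeine points, 53.2 to 60.4 CPM, all lie above both vehicle points, 42.4 and 47.0 CPM; in the other 9 panels the groups overlap.

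Per kilobase of transcript, Mfn2 and Dnm1l were the most abundant of the 10 genes in these ventricles. Averaged over the 5 libraries, Mfn2 was highest at 52.7 CPM per kilobase, followed by Dnm1l at 45.4, Opa1 at 23.6, Esrra at 22.9, Esrrg at 21.2, Mfn1 at 21.0, Tfam at 15.1, Nrf1 at 10.7, Ppargc1a at 9.83 and Ppargc1b at 5.0 CPM per kilobase. The ranges over libraries separated Dnm1l from Opa1 (lowest Dnm1l library 41.9, highest Opa1 library 26.8), Mfn1 from Tfam, Tfam from Nrf1, and Ppargc1a from Ppargc1b. Neighbours elsewhere in that order overlapped, so that Opa1, Esrra, Esrrg and Mfn1 could not be ranked among themselves. Each length is that of the annotated transcript paired with the gene's most-counted RefSeq record, so a gene's level depends on that choice of transcript.

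Among the coactivators, Ppargc1a (chr5:51454249-51553921, minus strand, mm10) had 81.4, 59.3 and 53.9 CPM in the caffeine libraries, against 52.6 and 70.6 CPM in the vehicle libraries. The highest value was caffeine library 1 and the lowest a vehicle library, with the others between them in both groups. Its log2 fold change was 0.08 with a 95% interval of -0.35 to 0.50 (adjusted p = 0.999 in edgeR). Ppargc1b (chromosome 18) had 14.8, 20.8 and 22.7 CPM in the caffeine libraries and 14.9 and 18.2 CPM in the vehicle libraries. Caffeine libraries 2 and 3 lay above both vehicle libraries and caffeine library 1 lay just below them. Its log2 fold change of 0.23 had the widest interval of the 10 genes, -0.20 to 0.66, which leaves room for a change in either direction. With 1 library left out it ran from 0.09 (without vehicle library 1) to 0.40 (without caffeine library 1).

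Esrra (chr19:6910977-6921808, minus strand) encodes ERRα, the receptor through which PGC-1α drives many oxidative genes. It had 53.2, 53.2 and 60.4 CPM in the caffeine libraries, against 47.0 and 42.4 CPM in the vehicle libraries. Every caffeine library lay above both vehicle libraries, with means of 55.6 ± 4.14 CPM and 44.7 ± 3.31 CPM (SD, n = 3 and n = 2). The log2 fold change was 0.31 (SE 0.14, 95% interval 0.01 to 0.62), with an unadjusted p of 0.043 in edgeR and an adjusted p of 0.949 over all genes, so it did not pass the test. In tissue RNA of this kind, more cells of a type and more RNA per cell cannot be told apart. Log2 fold changes were negative for 11 of 12 cardiomyocyte, 8 of 10 endothelial and 7 of 7 liver and foregut markers. They were positive for 6 of 9 cushion mesenchyme, 6 of 7 epicardial, 9 of 10 erythroid and 5 of 5 macrophage markers. Among all genes tested, 7333 were positive and 6496 negative. Groups did not overlap for 7 of 12 cardiomyocyte, 1 of 10 endothelial and 0 of 7 liver and foregut markers. The same held for 1 of 9 cushion mesenchyme, 3 of 7 epicardial, 1 of 10 erythroid and 0 of 5 macrophage markers. Over all genes tested it held for 20.4%. The part of cell composition in the Esrra difference was not tested. Leaving out any 1 library kept the log2 fold change between 0.21 and 0.39, but the unadjusted p in edgeR was 0.075 without caffeine library 2, 0.129 without caffeine library 3 and 0.228 without vehicle library 2. In those 3 fits, and with RLE scaling (0.0503), no gene of the 10 had an unadjusted p below 0.05. Trmt112, on the opposite strand, shares 50 bases with the Esrra exons, and reads from those bases cannot be told apart without strand information. Trmt112 itself had 946, 927 and 1108 estimated counts in the caffeine libraries and 1051 and 812 in the vehicle libraries, which overlap.

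Esrrg (chr1:187609006-188214884, plus strand) encodes ERRγ, which in the mouse heart turns on oxidative metabolism around birth. Its values were 123, 111 and 105 CPM in the caffeine libraries and 92.6 and 129.9 CPM in the vehicle libraries. The 2 vehicle libraries enclosed all 3 caffeine libraries, and the log2 fold change was 0.02 (95% interval -0.32 to 0.36). The ratio of Esrrg to Esrra per kilobase was 0.98, 0.88 and 0.74 in the caffeine libraries, against 0.83 and 1.30 in the vehicle libraries (two-sided exact permutation p = 0.5). That test has 10 arrangements of the libraries and cannot give a p below 0.1. Of the 6 ratios and shares tested this way, none had an adjusted p below 0.6.

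Nrf1 (chr6:30047988-30153458, plus strand), the transcription factor upstream of Tfam, had 35.5, 39.0 and 42.7 CPM in the caffeine libraries and 40.0 and 34.8 CPM in the vehicle libraries. The groups overlapped, and the log2 fold change was 0.06 (95% interval -0.25 to 0.38). Tfam (chr10:71225477-71238044, minus strand) had 58.8, 68.7 and 54.9 CPM in the caffeine libraries and 67.9 and 64.4 CPM in the vehicle libraries. Caffeine library 2 was the highest of the 5 and the other 2 caffeine libraries were the lowest. Its log2 fold change of -0.12 was the most negative of the 10 genes, with an interval of -0.43 to 0.19.

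The mitofusins differ in abundance. Mfn2 (chr4:147873595-147904819, minus strand), which also tethers mitochondria to the endoplasmic reticulum, had 214, 220.0 and 232 CPM in the caffeine libraries and 240.2 and 212 CPM in the vehicle libraries. Both the highest and the lowest library were vehicle libraries, and the log2 fold change was -0.03 (95% interval -0.29 to 0.24). Mfn1 (chr3:32529482-32579225, plus strand), the stronger of the mitofusins in docking outer membranes, had 95.8, 99.2 and 85.9 CPM in the caffeine libraries and 97.0 and 101 CPM in the vehicle libraries. Caffeine library 3 was the lowest, the groups overlapped, and the log2 fold change was -0.08 (95% interval -0.36 to 0.20). The Mfn2 to Mfn1 ratio per kilobase averaged 2.56 ± 0.29 in the caffeine libraries and 2.47 ± 0.28 in the vehicle libraries (SD, n = 3 and n = 2; exact permutation p = 0.7). In the deposited table the listed spans of Gm5506 and Gm5801 cover Mfn2, and that of Gm5512 covers Esrra. Per library Gm5506 had 39969 to 58022 estimated counts and Gm5801 1093 to 1267, beside 4659 to 5831 for Mfn2. Gm5512 had 335 to 437, beside 930 to 1330 for Esrra. Only the listed spans of these rows were compared, not their exons. Whether their exons overlap those of Mfn2 or Esrra was not tested. The labels do not say how the counting shared reads there.

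Opa1 (chr16:29579334-29654602, plus strand), the inner membrane fusion GTPase that also holds cristae together, had 140.2, 153 and 137 CPM in the caffeine libraries and 138 and 167 CPM in the vehicle libraries. The highest was a vehicle library and the lowest a caffeine library, and the log2 fold change was -0.09 (95% interval -0.38 to 0.20). Dnm1l (chr16:16312228-16359031, minus strand), which encodes the GTPase that constricts mitochondria for division, had 175, 183 and 163 CPM in the caffeine libraries and 164 and 199.95 CPM in the vehicle libraries. The order was the same mix of groups, and the log2 fold change was -0.07 (95% interval -0.35 to 0.22). The Opa1 to Dnm1l ratio per kilobase, fusion of the inner membrane set against division, varied little over the 5 libraries: it was 0.52 ± 0.01 in the caffeine libraries and 0.52 ± 0.0027 in the vehicle libraries (exact permutation p = 0.6). For PGC-1α against PGC-1β, the ratio per kilobase was 3.11, 1.61 and 1.34 in the caffeine libraries and 2.00 and 2.19 in the vehicle libraries, so caffeine libraries lay on both sides of the vehicle libraries (exact permutation p = 0.8).

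**Figure D2:**
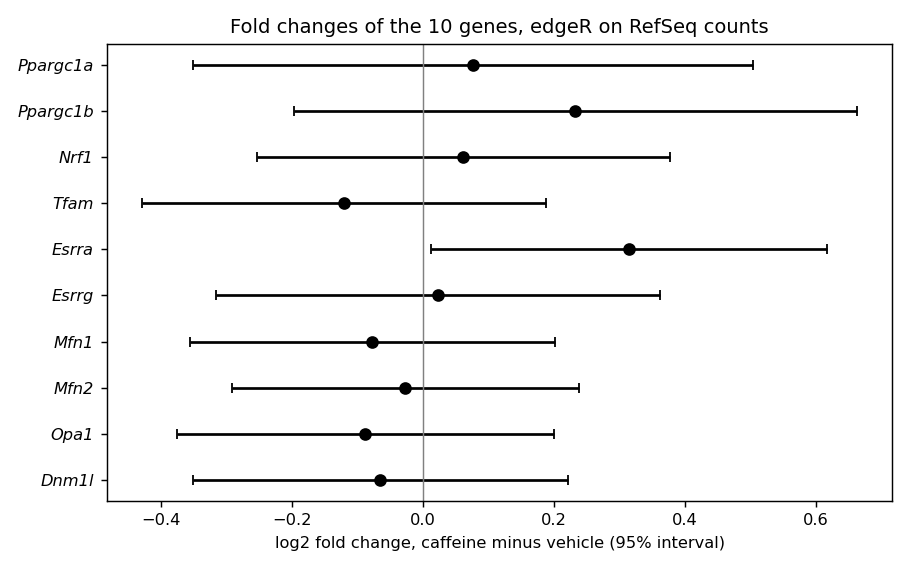
Log2 fold change of each of the 10 genes, caffeine minus vehicle (horizontal axis), from edgeR on the RefSeq gene counts of 3 caffeine and 2 vehicle libraries; bars are 95% intervals and the vertical line marks no change. The Esrra interval, 0.01 to 0.62, lies above 0 before adjustment for the number of genes, and the other 9 intervals include 0.

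The promoters of these genes were read from the RefSeq promoter windows on GRCm38.p6 (250 bases before to 50 after a transcription start). Windows were held for 9 of the 10 genes, and 10 windows of 7 genes lay at the start of a transcript in the deposited table. The strings searched, 3 in all, were taken on both strands: the NRF1 palindrome (GCGCA followed by its reverse complement TGCGC), the ETS string CCGGAAGT, the kind of site bound by GABP (also called NRF-2), and the ERR response element TCAAGGTCA. The NRF1 string was in 1 of the 10 windows, that of Opa1, and in 0.971% of all 32851 promoter windows. The ETS string was in 2 of the 10, those of Mfn1 and Tfam, and in 3.89% of all windows. The ERR element was in 0 of the 10 and in 0.423% of all windows. A match of letters is not evidence of binding, and the strings overlapped in none of the windows shown. The windows of Opa1 (chr16:29579084-29579383, plus strand), Tfam (chr10:71237995-71238294, minus strand) and Mfn1 (chr3:32529232-32529531, plus strand) are shown 5′ to 3′ because they hold the matches, in capitals, which begin at position -59, -47 and -44 from the start.
Opa1: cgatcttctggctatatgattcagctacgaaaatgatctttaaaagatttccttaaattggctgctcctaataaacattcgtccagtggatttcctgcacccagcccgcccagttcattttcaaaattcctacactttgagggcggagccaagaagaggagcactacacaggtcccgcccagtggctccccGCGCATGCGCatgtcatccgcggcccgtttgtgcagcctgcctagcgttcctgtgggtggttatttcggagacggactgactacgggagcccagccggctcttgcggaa
Tfam: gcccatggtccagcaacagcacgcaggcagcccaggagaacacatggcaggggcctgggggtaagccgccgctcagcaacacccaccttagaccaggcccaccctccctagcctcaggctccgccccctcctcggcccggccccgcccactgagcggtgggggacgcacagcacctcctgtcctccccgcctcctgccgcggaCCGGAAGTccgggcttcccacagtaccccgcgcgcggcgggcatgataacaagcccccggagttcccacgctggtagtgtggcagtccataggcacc
Mfn1: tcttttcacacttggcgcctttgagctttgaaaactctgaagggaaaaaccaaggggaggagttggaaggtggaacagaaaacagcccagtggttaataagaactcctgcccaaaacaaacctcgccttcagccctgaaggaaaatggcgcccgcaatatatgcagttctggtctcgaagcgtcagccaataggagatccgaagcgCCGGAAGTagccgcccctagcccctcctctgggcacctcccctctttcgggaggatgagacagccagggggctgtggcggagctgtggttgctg

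Neither the gene with the NRF1 string nor those with the ETS string passed the test between the groups. Opa1, Tfam and Mfn1 had log2 fold changes of -0.09, -0.12 and -0.08. Nrf1 itself and Gabpa, which encodes the DNA-binding subunit of GABP, had log2 fold changes of 0.06 and 0.20, neither past FDR 0.05. Esrra, the 1 gene of the 10 whose groups did not overlap, had none of the 3 strings in the window at its start. Only exact strings were searched, so a window without them can still hold a variant of a site. Control of these genes by the factors was not tested.

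The same reads were also counted per RefSeq transcript. The 10 genes had 22 transcripts in that table, and 21 passed the filter. None passed FDR 0.05 in edgeR, DESeq2 or limma-voom. At an unadjusted p below 0.05 there were 3 of the 21 transcripts, against 7.36% of all 18418 tested, and for 6 of the 21 the groups did not overlap, against 23.3% of all. Of these 6, 3 had the caffeine libraries above (the Esrra transcript, NM_008904 of Ppargc1a and NM_152816 of Dnm1l) and 3 had them below (NM_001243792 of Esrrg, and NM_001276341 and NR_075074 of Dnm1l). Dnm1l therefore supplied 3 of the 6. Counts of transcripts of 1 gene are estimates that share reads, so they are not independent of each other.

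Dnm1l, whose protein isoforms differ by short inserted exons, had 5 transcripts in the table. They differ by where they start and by 4 exons that some skip. NM_001025947, NM_001276340 and NM_152816 start at the outer start, and NM_001276341 and NR_075074 start 456 bases inside it. Both promoter windows are shown, 5′ to 3′ on the minus strand, because the counted transcripts begin at both starts. The capital is the first transcribed base, and neither window holds any of the 3 strings. The outer window is chr16:16358982-16359281 and the inner one chr16:16358526-16358825.
Dnm1l outer start: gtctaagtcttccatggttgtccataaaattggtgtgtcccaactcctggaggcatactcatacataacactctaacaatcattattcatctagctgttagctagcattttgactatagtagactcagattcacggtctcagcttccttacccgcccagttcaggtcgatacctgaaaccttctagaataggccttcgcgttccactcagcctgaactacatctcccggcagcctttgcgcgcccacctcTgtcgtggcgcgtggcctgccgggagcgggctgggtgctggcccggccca
Dnm1l inner start: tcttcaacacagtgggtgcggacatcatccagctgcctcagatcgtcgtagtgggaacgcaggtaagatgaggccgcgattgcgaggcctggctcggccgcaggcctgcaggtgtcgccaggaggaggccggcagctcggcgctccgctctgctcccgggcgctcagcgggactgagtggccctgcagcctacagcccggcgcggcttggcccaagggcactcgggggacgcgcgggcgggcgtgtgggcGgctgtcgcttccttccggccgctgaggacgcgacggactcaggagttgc

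The share of Dnm1l counts assigned to the inner-start transcripts was 45.2%, 48.1% and 47.5% in the caffeine libraries, against 59.0% and 52.4% in the vehicle libraries. All 3 caffeine libraries lay below both vehicle libraries, with means of 46.9% ± 1.52 and 55.7% ± 4.66 (SD, n = 3 and n = 2). The exact permutation p was 0.1, the smallest that 3 against 2 libraries allow, and 0.6 after adjustment over the 6 ratios and shares. Most of this share was NR_075074, with 42.2%, 44.9% and 45.7% in the caffeine libraries and 51.7% and 48.0% in the vehicle libraries. That record alone holds the 78-base exon described next, so start and exon cannot be told apart in this share.

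The 4 exons are shown next in capitals, each with 15 bases of the neighbouring exons of the spliced transcript in lower case, 5′ to 3′ on the minus strand of GRCm38, because they tell the 5 transcripts apart. Their place in each transcript was read from the GENCODE M21 transcript that GENCODE pairs with the RefSeq record. The 39-base exon (chr16:16342697-16342735) is in NM_152816 alone and lies in the coding sequence of the GTPase domain region. The 47-base exon (chr16:16341422-16341468) is skipped in NM_001276341 alone; its length is not a multiple of 3. The 78-base exon (chr16:16318764-16318841) is in NR_075074 alone, and the 33-base exon (chr16:16318445-16318477) is in NR_075074, NM_001276340 and NM_001276341. Both belong to the variable domain of Drp1.
Dnm1l 39-base exon: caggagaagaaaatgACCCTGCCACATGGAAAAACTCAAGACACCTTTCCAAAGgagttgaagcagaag
Dnm1l 47-base exon: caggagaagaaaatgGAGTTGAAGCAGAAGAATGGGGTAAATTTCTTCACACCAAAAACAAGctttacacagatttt
Dnm1l 78-base exon: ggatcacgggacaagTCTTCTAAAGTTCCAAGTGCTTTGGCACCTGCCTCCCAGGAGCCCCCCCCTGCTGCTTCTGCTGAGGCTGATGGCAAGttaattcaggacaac
Dnm1l 33-base exon: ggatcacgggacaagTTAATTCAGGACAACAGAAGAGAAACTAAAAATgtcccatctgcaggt

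NM_001276341, the transcript that skips the 47-base exon, had 5.18, 5.74 and 2.91 CPM in the caffeine libraries, against 11.96 and 8.66 CPM in the vehicle libraries. The groups did not overlap, and the log2 fold change was -1.16 (SE 0.33, unadjusted p = 0.0083, adjusted p = 0.443 in edgeR). As a share of Dnm1l counts it was 2.97%, 3.15% and 1.79% in the caffeine libraries and 7.32% and 4.36% in the vehicle libraries. NM_152816, the transcript with the 39-base exon, had 13.8, 16.1 and 18.0 CPM in the caffeine libraries, against 11.4 and 11.3 CPM in the vehicle libraries. All caffeine libraries were above both vehicle libraries, with a log2 fold change of 0.49 (SE 0.19, unadjusted p = 0.035, adjusted p = 0.643 in edgeR). It was 7.87%, 8.84% and 11.03% of Dnm1l counts in the caffeine libraries and 6.98% and 5.66% in the vehicle libraries.

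NR_075074, the record with both variable-domain exons, received the most Dnm1l counts in every library and had 73.8, 81.9 and 74.6 CPM in the caffeine libraries, against 84.3 and 95.6 CPM in the vehicle libraries. The groups did not overlap, and the log2 fold change was -0.23 (adjusted p = 0.785 in edgeR). RefSeq numbers it as a non-coding record, while its GENCODE partner is annotated as coding. The share of Dnm1l counts from the 3 transcripts with the 33-base exon was 52.8%, 58.4% and 57.9% in the caffeine libraries and 62.7% and 61.2% in the vehicle libraries, without overlap. The other Dnm1l transcripts, NM_001025947 and NM_001276340, overlapped between the groups, with log2 fold changes of 0.05 and 0.48. Leaving out any 1 library kept NM_001276341 between -1.40 and -0.91 and NM_152816 between 0.40 and 0.59 on the log2 scale.

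**Figure D3:**
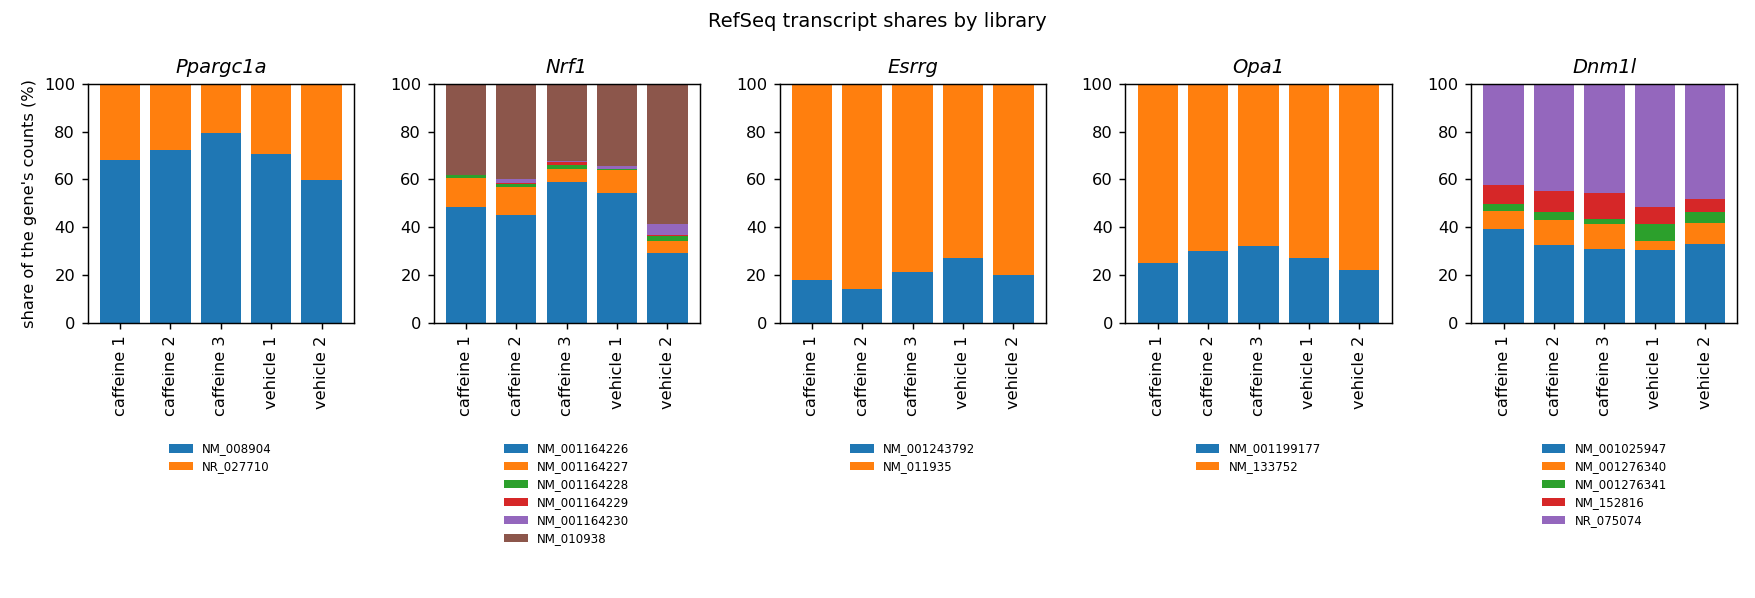
Share of each gene's estimated counts given to each RefSeq transcript (vertical axis, percent) in the 3 caffeine and 2 vehicle libraries, for the 5 genes with several tested transcripts; colours are transcripts within a panel. In Dnm1l the red band (NM_152816) spans 7.87% to 11.03% in the caffeine libraries and 5.66% to 6.98% in the vehicle libraries, and the green band (NM_001276341) 1.79% to 3.15% and 4.36% to 7.32%.

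A shift of a gene's transcripts relative to one another (transcript usage) could be tested for 5 of the 10 genes, with diffSpliceDGE in edgeR. None of the 5 passed FDR 0.05, against 3.07% of the 2897 genes tested. An unadjusted p below 0.05 was found for 1 of the 5, Dnm1l, against 17.7% of all genes tested. Its adjusted p in edgeR was 0.224. Esrrg, Opa1, Ppargc1a and Nrf1 had adjusted p-values of 0.493, 0.524, 0.613 and 0.677 in that test.

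Esrrg has an outer start, used by NM_001243792, and an inner start at position 187997827, used by NM_011935. NM_001243792 had 21.9, 15.8 and 22.4 CPM in the caffeine libraries, against 25.2 and 25.8 CPM in the vehicle libraries. All 3 caffeine libraries were below both vehicle libraries, and its log2 fold change was -0.35 (SE 0.19, adjusted p = 0.793 in edgeR). NM_011935 had 101, 94.5 and 83.0 CPM in the caffeine libraries and 67.2 and 104 CPM in the vehicle libraries, which overlap. The inner start therefore held 82.2%, 85.7% and 78.7% of Esrrg counts in the caffeine libraries and 72.7% and 80.0% in the vehicle libraries (exact permutation p = 0.3).

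Opa1 splices a 54-base exon (chr16:29588823-29588876, plus strand) into NM_001199177 and skips it in NM_133752. It lies in the coding sequence, in the alternatively spliced stretch near the sites where the protein is processed. The exon is shown because it tells the coding sequences of the 2 counted transcripts apart. Their GENCODE partners also differ in total length, 3230 bases for NM_001199177 and 6230 bases for NM_133752.
Opa1 54-base exon: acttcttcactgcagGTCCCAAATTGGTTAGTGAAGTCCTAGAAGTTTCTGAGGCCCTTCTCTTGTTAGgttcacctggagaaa

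NM_001199177 received 24.9%, 30.1% and 32.2% of Opa1 counts in the caffeine libraries and 27.3% and 22.2% in the vehicle libraries. The groups overlapped, with means of 29.1% ± 3.76 and 24.8% ± 3.65 (SD, n = 3 and n = 2). For Ppargc1a, NM_008904 had 55.3, 42.8 and 42.7 CPM in the caffeine libraries, against 37.2 and 42.0 CPM in the vehicle libraries. The groups did not overlap but nearly touched, with a log2 fold change of 0.25 (adjusted p = 0.856 in edgeR). The other Ppargc1a record, NR_027710, overlapped between the groups, with a log2 fold change of -0.28. Of the 6 Nrf1 transcripts, 5 were tested and each overlapped between the groups, with log2 fold changes between -1.82 and 0.42.

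Another deposited table counts transcripts of Ensembl release 71, which lists more of them, 68 for the 10 genes, of which 44 passed the filter. Testing transcript usage on that table was chosen after the RefSeq results had been seen. None of the 44 transcripts passed FDR 0.05 in edgeR. At an unadjusted p below 0.05 there were 6 of the 44, all higher in the caffeine libraries, against 10.7% of all 34905 transcripts tested. Of the 3737 transcripts that make up this 10.7%, 2133 were higher in the caffeine libraries and 1604 lower. Each of the 6 made up at most 17.3% of its gene's counts in any library. The release 71 transcript names could not be matched to a sequence in the annotation used here, so what these transcripts contain is not described.

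Usage on the Ensembl table passed FDR 0.05 for 2 of the 10 genes, Mfn2 (adjusted p = 0.016) and Ppargc1b (adjusted p = 0.021), against 6.94% of the 7540 genes tested. Esrra had an adjusted p of 0.084 and Nrf1 one of 0.110, and the other 6 genes had values from 0.289 to 0.726. The highest was that of Dnm1l, so the usage of Dnm1l passed FDR 0.05 on neither annotation. Dnm1l had 3 tested Ensembl transcripts, and the groups overlapped in the share of each. For example, Dnm1l-201 had 73.6%, 64.3% and 63.7% in the caffeine libraries and 72.9% and 70.2% in the vehicle libraries. In Mfn2 the transcript with the smallest p was Mfn2-004, with 3.58%, 4.21% and 6.81% of Mfn2 counts in the caffeine libraries, against 0.652% and 1.47% in the vehicle libraries. The lowest caffeine library was above both vehicle libraries. These shares were 187, 219.5 and 354 estimated counts in the caffeine libraries and 38.5 and 70.0 in the vehicle libraries, and the test of this transcript by itself put its log2 fold change at 2.19 (SE 0.47, adjusted p = 0.257 in edgeR).

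In Ppargc1b the minor transcript Ppargc1b-002 had 9.09%, 9.76% and 10.3% of the counts in the caffeine libraries, against 0.585% and 1.32% in the vehicle libraries. The 3 caffeine libraries were close together and far above both vehicle libraries. The estimated counts behind these shares were 32.6, 47.3 and 51.3 in the caffeine libraries and 2.12 and 5.30 in the vehicle libraries, and its log2 fold change was 3.56 (SE 0.66, adjusted p = 0.242 in edgeR). The main transcript, Ppargc1b-001, overlapped between the groups with 324, 437 and 449 estimated counts in the caffeine libraries and 359 and 395 in the vehicle libraries.

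Both usage calls depended on single libraries. The Mfn2 call was lost, with adjusted p-values from 0.066 to 0.144, when caffeine library 1, 2 or 3 or vehicle library 1 was left out, and it was 0.0079 without vehicle library 2. The Ppargc1b call was lost without caffeine library 2 (0.064), caffeine library 3 (0.068) or vehicle library 1 (0.17). Without vehicle library 2 more of the 10 genes passed, and so did more genes in all. That fit rests on vehicle library 1, which had the lowest share of some minor transcripts. Esrrg-003 was 0.849% there, 9.71% in vehicle library 2 and 11.1% to 24.1% in the caffeine libraries. Ppargc1a-002 was 0.891% there, 5.38% in vehicle library 2 and 6.50% to 10.9% in the caffeine libraries. For Esrra-005 vehicle library 2 was lowest, with 0.000854% against 1.81% in vehicle library 1. The part of these differences in the calls was not tested. Esrra passed without vehicle library 1 (adjusted p = 0.048) and Nrf1 without caffeine library 2 (0.031).

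Nrf1 held 3 of the 6 Ensembl transcripts. Nrf1-204 had 13.1%, 6.65% and 17.3% of Nrf1 counts in the caffeine libraries, against 1.22% and 2.66% in the vehicle libraries. Nrf1-006 had 6.29%, 2.70% and 4.48% in the caffeine libraries and 1.05% and 0.784% in the vehicle libraries. Nrf1-005 had 0.918% to 1.12% in the caffeine libraries and 0.206% and 0.208% in the vehicle libraries. In all 3 the groups did not overlap, and the adjusted p-values in edgeR ran from 0.257 to 0.460. Esrra-003 had 16.3, 13.3 and 18.4 estimated counts in the caffeine libraries and 2.83e-11 and 5.31e-14 in the vehicle libraries, which are estimates near 0 and not observed counts. It was at most 1.36% of Esrra counts in any library.

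**Figure D4:**
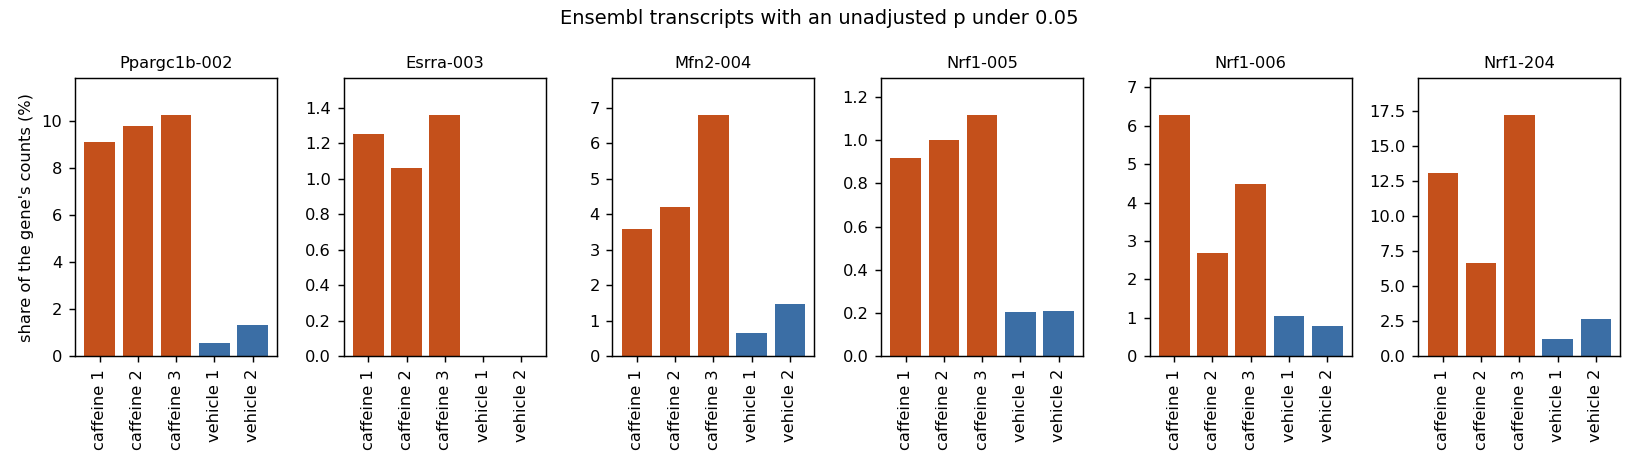
Share of each gene's estimated counts (vertical axis, percent, from 0, a different scale in each panel) given to the 6 Ensembl transcripts with an unadjusted p below 0.05, in the 3 caffeine (orange) and 2 vehicle (blue) libraries. These transcripts were picked by that p, and in each panel all caffeine bars are above both vehicle bars, for example 9.09% to 10.3% against 0.585% and 1.32% for Ppargc1b-002.

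Genes that work with the 10 were followed in lists chosen by function, and no gene of any list passed FDR 0.05. Among 21 other transcriptional regulators of mitochondrial biogenesis, 15 log2 fold changes were positive and 6 negative, with a median of 0.10, beside 7333 positive and 6496 negative and a median of 0.01 among all genes tested. The regulators with the smallest p were Gabpb2 and Gabpa, which encode subunits of GABP. Gabpb2 had 51.2, 56.7 and 54.1 CPM in the caffeine libraries, against 35.1 and 50.6 CPM in the vehicle libraries, without overlap and with a log2 fold change of 0.33 (adjusted p = 0.982 in edgeR). Gabpa had 135, 140.3 and 116 CPM in the caffeine libraries and 98.99 and 128 CPM in the vehicle libraries, which overlap. Without vehicle library 1 the log2 fold changes were 0.09 for Gabpb2 and 0.02 for Gabpa, and without vehicle library 2 they were 0.59 and 0.37. Gabpb1, which encodes another GABP subunit and was chosen after its values were seen, had 39.3, 42.2 and 40.1 CPM in the caffeine libraries and 37.2 and 36.2 CPM in the vehicle libraries. It and Gabpb2 were the 2 genes without overlap among the 21 of the list, against 20.4% of all genes tested. The log2 fold change of Gabpb1 was 0.14 (adjusted p = 0.999 in edgeR).

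Mitochondrial DNA maintenance and transcription was even, with 12 of 22 log2 fold changes positive and a median of 0.01. Groups did not overlap for 6 of the 22, against 20.4% of all genes tested. Polrmt and Slirp are named because they had the smallest p of the list. Polrmt, the mitochondrial RNA polymerase that works with Tfam, had 30.5, 35.5 and 40.6 CPM in the caffeine libraries, against 29.0 and 27.4 CPM in the vehicle libraries. The groups did not overlap (log2 fold change 0.33, adjusted p = 0.980 in edgeR). Slirp, which stabilises mitochondrial messenger RNA, had 25.8, 29.1 and 23.6 CPM in the caffeine libraries and 35.6 and 28.5 CPM in the vehicle libraries, which overlap (log2 fold change -0.29).

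Among 22 genes of mitochondrial protein import, 15 log2 fold changes were negative, with a median of -0.07. Groups did not overlap for 3 of the 22, against 20.4% of all genes tested. Hspd1 and Hspe1 are named because they had the smallest p of the list. Hspd1, the matrix chaperonin Hsp60, had 581, 779.6 and 638 CPM in the caffeine libraries, against 897 and 841 CPM in the vehicle libraries. All caffeine libraries were below both vehicle libraries, with a log2 fold change of -0.38 (SE 0.14, unadjusted p = 0.018, adjusted p = 0.912 in edgeR). Hspe1, its co-chaperonin Hsp10, had 84.8, 123 and 103 CPM in the caffeine libraries and 148 and 119 CPM in the vehicle libraries, which overlap (log2 fold change -0.37, adjusted p = 0.949). The genes lie head to head and share a promoter in mammals.

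Among 18 other genes of fusion and inner membrane shaping, 13 log2 fold changes were negative, with a median of -0.07. Immt and Chchd3, subunits of the MICOS complex at the necks of cristae, are named because they had the smallest p of the list. Both had every caffeine library below both vehicle libraries. Groups did not overlap for 6 of the 18 genes of the list, against 20.4% of all genes tested. Immt had 316, 345 and 316 CPM in the caffeine libraries and 389 and 352 CPM in the vehicle libraries (log2 fold change -0.19). Chchd3 had 150.5, 154 and 140.4 CPM in the caffeine libraries and 181 and 160.2 CPM in the vehicle libraries (log2 fold change -0.20). Neither passed FDR 0.05, and the cardiomyocyte marker sums were lower in the same caffeine libraries; the part of cell composition was not tested.

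Of 13 other fission genes found in the table, 7 log2 fold changes were positive and 6 negative, with a median of 0.08. Inf2, a formin that helps Drp1 constrict mitochondria at the endoplasmic reticulum, had 21.4, 30.0 and 35.9 CPM in the caffeine libraries and 22.0 and 20.7 CPM in the vehicle libraries, which overlap (log2 fold change 0.45, unadjusted p = 0.047, adjusted p = 0.949 in edgeR). Mtfr2 had 10.7, 13.9 and 14.2 CPM in the caffeine libraries and 14.99 and 14.6 CPM in the vehicle libraries (log2 fold change -0.20). Mitophagy genes split 6 positive to 5 negative with a median of 0.0062, and transport genes 5 to 1 with a median of 0.05. Usp30, which opposes mitophagy, and Fkbp8, a mitophagy receptor, overlapped between the groups with log2 fold changes of 0.14 and -0.11. Rhot2 and Rhot1, the Miro proteins that link mitochondria to motors, also overlapped, with log2 fold changes of 0.19 and 0.10.

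**Figure D5:**
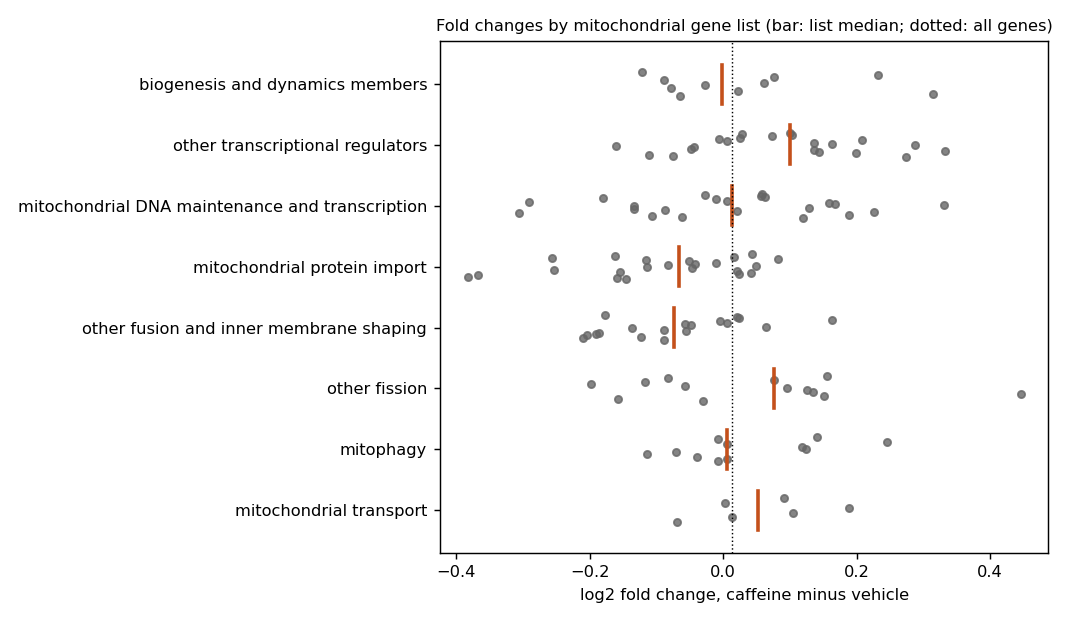
Log2 fold change, caffeine minus vehicle (horizontal axis), of every tested gene in each mitochondrial list; points are genes, orange bars list medians, and the dotted line the median of all genes tested, 0.01. The list medians lie between -0.07 and 0.10, and no point passed FDR 0.05.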

How the data were processed

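Per the labels' protocols, total RNA went into TruSeq RNA libraries; the sources used here give neither read length nor strand. The authors deposited estimated counts (expected counts, which need not be whole) per gene and per transcript on RefSeq of 10 May 2013 and on Ensembl release 71, per the file headers. TopHat, Partek, mm10 and GRCm38 are named in the submitters' processing notes, with no versions. Reads common to several transcripts, overlapping genes or near-identical copies had to be divided among them, an error that no test here includes. Gene ends are the deposited stop minus 1, since 5906 of 8552 genes with the same start as the reference annotation had a stop 1 base past its end.

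Estimated counts were rounded to whole numbers, filtered with filterByExpr and scaled by TMM. edgeR 4.0.16 in R 4.3.3 gave quasi-likelihood tests (robust, two-sided) of 3 caffeine against 2 vehicle libraries, with FDR 0.05 (Benjamini-Hochberg, over every feature tested) as the threshold. CPM used the TMM-scaled library sizes; SE is the absolute log2 fold change divided by the root of F. Transcript usage was tested with diffSpliceDGE. Single ratios and shares had exact permutation tests. Alternatives were RLE or no scaling, no filter, 5 CPM in 2 libraries, DESeq2 1.42.0, limma-voom (limma 3.58.1), no robust estimation, the Ensembl tables, a replicate block, Simes adjustment and leaving out each library; the alternatives for Ensembl usage were added after seeing the data. The members and lists were chosen with earlier results of these data known. The genes named are the 10 members with their tested transcripts, genes overlapping them and the 2 genes with the smallest p of each list. Gabpb1 was added after its values were seen.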

Additional observations from a re-analysis of the deposited data

How the results depend on the processing

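None of the 10 genes and none of their RefSeq transcripts passed FDR 0.05 under any alternative run. Over all genes the count of calls was 1 in edgeR, 6 with no low-count filter, 18 with DESeq2, 2 on the Ensembl table and 0 to 18 when 1 library was left out. Over all transcripts it was 0 in edgeR, 194 with DESeq2 and 0 to 1 with 1 library left out. RefSeq usage calls numbered 89 over all genes, 28 with Simes adjustment, 15 to 53 with 1 library left out and 523 on the Ensembl table, where 2 of the 10 genes passed, Mfn2 and Ppargc1b, which have a single RefSeq transcript and could not be tested there. Ensembl usage calls numbered 290 with Simes adjustment and 301 with the 5 CPM filter, which left out Ppargc1b-002 and kept 1 of the 10 genes, Mfn2; with 1 library left out they ran from 52 to 1019, and from 0 to 6 of the 10 genes. The cause of these shifts was not tested.

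The replicate numbers were also used as a block. Nothing in the labels says that a number marks a shared day or litter. Deviations from the group means correlated at -0.022 and 0.13 for the same-numbered pairs. The deviations of 2 vehicle libraries mirror each other, so the correlations with one are those with the other, with the sign turned. They cannot settle whether a number marks a shared batch, and caffeine library 3 has no vehicle library of its number. With the block, 52 genes, 9 transcripts, 3 RefSeq usage genes and 2 Ensembl usage genes passed, 0 of the 10 genes among them in any test. Nrf1 turned to -0.0047, Ppargc1b was at 0.09, and the Ensembl usage adjusted p was 0.252 for Mfn2 and 0.170 for Ppargc1b.

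At an unadjusted p below 0.05 there was 1 of the 10 genes in edgeR, 0 with RLE scaling or the block, and 0 to 2 with 1 library left out. Directions of small changes were not stable. Without scaling, Mfn2 was at 0.034. With 1 library left out, log2 fold changes ran from -0.12 to 0.28 for Ppargc1a, -0.0605 to 0.16 for Nrf1, -0.20 to 0.26 for Esrrg, -0.14 to 0.064 for Mfn2, -0.22 to 0.032 for Opa1, -0.20 to 0.0605 for Dnm1l, -0.25 to 0.0012 for Fkbp8, 0.09 to 0.40 for Ppargc1b, 0.09 to 0.59 for Gabpb2 and 0.02 to 0.37 for Gabpa. Among transcripts they ran from -0.14 to 0.24 for NM_001025947, -0.14 to 0.97 for NM_001164226, -0.0935 to 1.16 for NM_001164227, -0.65 to 2.47 for NM_001164228, -0.092 to 1.42 for NM_001276340, -0.51 to 0.024 for NM_010938, -0.16 to 0.44 for NM_011935 and -0.66 to 0.20 for NR_027710. With 2 vehicle libraries, leaving out either assumes that the remaining one varies like the caffeine libraries.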
